A study of Mus musculus with 54 samples.

Results

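Naive CD4+ T cells lacking CD5 were compared with naive CD4+ T cells lacking CD6 after 4 h of stimulation, using 3 libraries of each genotype. These 6 libraries were chosen by genotype and time from the 54 libraries of the series, and each gene was read as the level in Cd5-/- cells relative to that in Cd6-/- cells. The Cd5-/- cells came from an older gene-targeted line backcrossed to C57BL/6. The Cd6-/- cells came from C57BL/6 mice in which a pair of CRISPR guides had cut the first exon of Cd6. By the study's methods all mice were on a C57BL/6 background, also those of the WT and the Cd5-/-Cd6-/- (dKO) cells given beside the 2 knockouts. Groups at 4 h and 20 h had been stimulated for that time with plate-bound anti-CD3 at 3 µg/ml and anti-CD28 at 1 µg/ml. Unstimulated libraries were used where stated. The sorted WT cells used below for the 4 h response came from Lat fl-dtr maT-Cre mice. They were the human DTR-positive cells, which the study takes as WT. The dKO cells carried a single deletion reaching from Cd5 into Cd6, not a cross of the 2 single knockouts. Cells were taken from lymph nodes and spleens. Except for the sorted WT cells, they were enriched with magnetic beads by negative selection, which leaves a minority of other cells. The mice were young adults by the study's methods, and the number of mice behind a library is not given in the labels.

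CD5 and CD6 are related transmembrane glycoproteins of the scavenger receptor cysteine-rich family that sit beside the T cell receptor (TCR) on T cells. The cytoplasmic tails of both carry tyrosines that are phosphorylated on TCR engagement and recruit signaling proteins. CD5 is best known as a brake on TCR signaling, whereas CD6 binds the adhesion molecule ALCAM (CD166) and has been given both positive and negative roles. Anti-CD3 with anti-CD28 mimics antigen plus costimulation, and within hours it moves naive cells out of quiescence.

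The guides are shown because they were used to make the Cd6-/- mice. They target the start of the gene and leave most of it in place. By the study's methods, the allele kept was a short deletion that removes the start codon. The guide positions do not give the ends of this deletion, and the CD6-1 target lies outside it. The last 3 bases, in capitals, are the PAM beside each target.
CD6-1: ggagacggttgtgccaccgaTGG
CD6-2: ccaaggaagagccacatgtcTGG
Both matched exon 1 of Cd6, whose gene runs on the minus strand, and both guides read on the opposite strand to the gene. On GRCm38 the 20 bases of CD6-1 without the PAM lie at chr19:10829917-10829936, and those of CD6-2 lie at chr19:10829840-10829859. The annotated start codon, at chr19:10829854-10829856, falls inside the CD6-2 target.

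The 6 libraries held 25364780 to 42266537 counts, so that 3 counts, taken as the limit of detection, corresponded to 0.071 to 0.118 CPM (counts scaled to a fixed library size). No library was a copy of another: over genes, chi-square divided by its degrees of freedom was 12.8 to 70.0 between replicates of a genotype. The label CD4+ T cells matched the transcripts: 10 CD4 T cell markers, among them Cd4, Cd3e, and Trac, summed to 8081 to 10298 CPM in Cd5-/- and 6945 to 8542 CPM in Cd6-/- libraries. Away from the compared libraries, 2 unstimulated libraries went against their labels. The unstimulated library 2 labelled Cd5-/- had 719 CPM of Cd5, where its companions had 129 and 105 CPM. The unstimulated library 2 labelled Cd6-/- had 172 CPM of Cd5, where its companions had 724 and 719 CPM. For Cd6 the first had 329 CPM, where its companions had 1298 and 1084 CPM. The second had 1203 CPM of Cd6, where its companions had 349 and 251 CPM. In both genes each library thus looked like the other label. Both were kept under their labels and entered the estimate of the spread only. The count of genes without them is given below, and no fit with the expression filter described below left them out.

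The targeted genes came out as labelled in all 6 libraries. Cd5 (ENSMUSG00000024669, chr19:10717116-10739002, minus strand) was at 94.7, 150, and 61.6 CPM in the Cd5-/- libraries and at 1644, 1300, and 1133 CPM in the Cd6-/- libraries. The log2 fold change of Cd5 was -3.73 (SE 0.35, adjusted p = 4.31e-12, with the expression filter described below 0.00117). Cd6 (ENSMUSG00000024670, chr19:10789341-10830058, minus strand) was at 1245, 1048, and 1133 CPM in Cd5-/- cells and at 312, 250, and 230 CPM in Cd6-/- cells. Its log2 fold change was 2.11 (SE 0.27, adjusted p = 1.21e-07, with the filter 0.00644). Neither transcript was absent from its own knockout: the residual Cd5 mRNA was well above the limit of detection and so was the residual Cd6 mRNA, whereas the dKO libraries had 0.415 ± 0.0958 CPM of Cd5 and 0.554 ± 0.0964 CPM of Cd6 (SD, n = 3). Neither knockout differed from WT in the other gene by the test. Cd5 in Cd6-/- cells was 1359 ± 260 CPM beside 1510 ± 153 CPM in WT cells (adjusted p = 1). Cd6 in Cd5-/- cells was 1142 ± 98.8 CPM beside 922 ± 78.2 CPM in WT cells (adjusted p = 1). The lowest Cd5-/- library, at 1048 CPM of Cd6, nevertheless lay above the highest WT library, at 1012 CPM. At 20 h Cd6 was at 1187, 1309, and 1331 CPM in Cd5-/- and at 937, 1131, and 1044 CPM in WT cells. The study reported increased CD6 protein on Cd5-/- T cells. Of the ligands of CD6, Alcam was at 65.6 ± 9.61 CPM in Cd5-/- and 65.9 ± 5.75 CPM in Cd6-/- cells, and Cdcp1 was below 1 CPM in all 6 libraries.

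**Figure D1:**
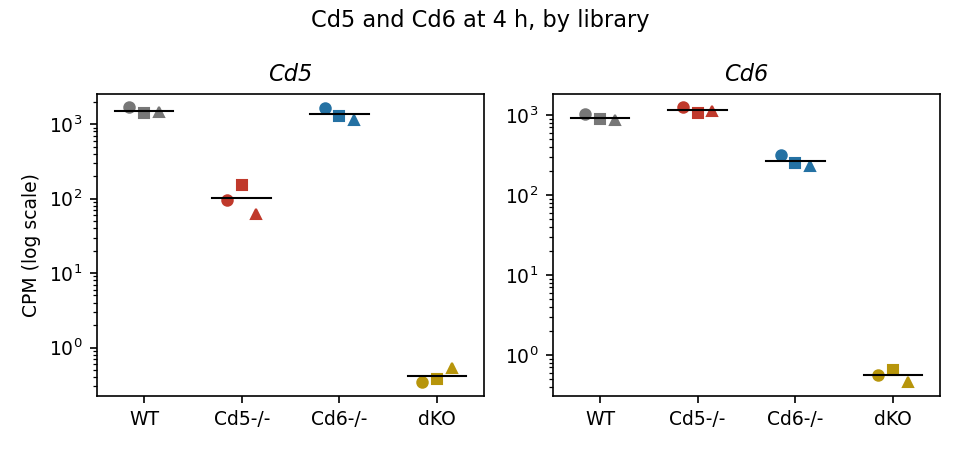
Levels of Cd5 (left) and Cd6 (right) at 4 h in each library, in CPM on a log axis, for the 4 genotypes; circles, squares, and triangles are libraries 1, 2, and 3, and bars are means of 3 libraries. Cd5 in Cd5-/- cells and Cd6 in Cd6-/- cells were reduced but not lost, with means of 102 and 264 CPM, while both were below 1 CPM in dKO cells.

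A gene was called when its fold change exceeded 2 and its adjusted p was under 0.05. Of 32290 genes with at least 1 read, 205 were called, 0.635% of those tested. The split was uneven: 19 genes (0.0588%) were higher and 186 genes (0.576%) were lower in Cd5-/- than in Cd6-/- cells. By adjusted p alone, 31 genes (0.096%) were higher and 282 (0.873%) were lower. When only the 16143 genes kept by an expression filter were tested, 58 genes (0.359%) were called, 12 higher and 46 lower, and 83 genes (0.514%) passed by adjusted p alone. Of these 58 genes, 56 were among the 205. In a single run on simulated counts the unfiltered fit called more unchanged genes than its nominal rate. The filtered fit passed a check whose limit on the share of false calls was looser than 0.05. The adjusted p with the filter is therefore given beside the called genes described below, and the 58 genes are taken as the firmer set. The simulated counts were drawn independently for each library, so deviations shared by libraries of the same number were not covered. None of the 58 genes had overlapping groups, and among the 205 genes the groups were apart for all 19 called higher and for 142 of the 186 called lower. Among all genes tested, 9.88% had groups that did not overlap.

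Single libraries carried much of the longer list. Without library 1 of the Cd5-/- cells 39 genes were called, and without library 3 of the Cd6-/- cells 121 were called, whereas without library 1 of the Cd6-/- cells 481 were called. Of the 58 genes, 28 were among the 39 and 44 were among the 121. With the replicate number as a block, 367 genes (1.14%) were called, 30 higher and 337 lower, and with both the block and the filter 151 were called. Same-numbered libraries of the 2 knockouts deviated together for numbers 1 and 2 and not for number 3, so values with the block are given for the gene lists as an alternative. Without the 2 unstimulated libraries that went against their labels 389 genes were called. The lower genes outnumbered the higher ones in every one of these fits.

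Beside WT cells at the same time, 24 genes (0.0743%) were called in Cd5-/- cells, 9 higher and 15 lower. In Cd6-/- cells 1 gene (0.0031%) was called, Cd6 itself. These comparisons share the knockout libraries with the comparison above, and the values below are therefore given side by side. Every test against WT cells was run over all genes without the filter, in the fit that exceeded its error rate on simulated counts. Their adjusted p are therefore less firm than those with the filter.

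Among adhesion molecules, Itga6, the alpha 6 chain of laminin-binding integrins, was lower in Cd5-/- cells, with 46.6, 53.1, and 64.3 CPM against 112, 148, and 149 CPM in Cd6-/- cells. The highest Cd5-/- library lay well below the lowest Cd6-/- library, and the WT level, 87.0 ± 27.0 CPM, lay between the means of the 2 knockouts. The log2 fold change of Itga6 was -1.32 (SE 0.19, adjusted p = 8.57e-06, with the filter 0.00644), and it passed in all 20 alternatives. Cd226, a costimulatory receptor that shares ligands with TIGIT, was at 5.45, 8.33, and 5.89 CPM in Cd5-/- and at 9.42, 15.2, and 18.0 CPM in Cd6-/- cells. Its log2 fold change was -1.11 (SE 0.19, adjusted p = 0.000288, with the filter 0.016). Ccr9, a gut-homing chemokine receptor, moved the other way, from 4.22, 3.01, and 3.53 CPM in Cd6-/- cells to 10.4, 6.13, and 5.29 CPM in Cd5-/- cells (log2 fold change 1.03, adjusted p = 0.0122, with the filter 0.0383). Itgb7, the beta 7 integrin chain, and Ccr4, a receptor for CCL17 and CCL22, passed over all genes (log2 fold changes -0.67 and 0.99) but not with the filter (adjusted p 0.0567 and 0.227). In the list of 19 adhesion and migration genes 2 were thus higher and 3 lower by adjusted p, with a median log2 fold change of -0.07, and 3 passed with the filter.

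Abcg1, Abca1, Tmie, Slc16a3, and Igfbp4, called in the filtered fit and held by no list, were singled out after their values were seen. They were not picked by rank: Abca1 and Slc16a3 lay near the threshold, and genes with smaller adjusted p were left out. Abcg1, a cholesterol exporter, was at 13.6, 17.7, and 18.7 CPM in Cd5-/- and at 43.2, 55.3, and 35.9 CPM in Cd6-/- cells (log2 fold change -1.43, SE 0.19, adjusted p with the filter 0.00117). Abca1, another cholesterol exporter, was at 3.38, 5.22, and 2.69 CPM against 12.6, 16.1, and 9.02 CPM (log2 fold change -1.73, adjusted p with the filter 0.0485). Both exporters were therefore lower in every Cd5-/- library. All 16 genes of the cholesterol synthesis list, targets of the transcription factor SREBP2, lay on the other side of 0, with a median log2 fold change of 0.39. None of the 16 passed the adjusted p with or without the filter, 1 passed with DESeq2 (Lss, 0.0118), 3 with the replicate block, and 5 with the filter and the block, all higher, while 11 had an unadjusted p under 0.05. Across all genes the median was 0, and 1.54% were higher and 5.12% were lower at that unadjusted p. Hmgcs1, an early enzyme of the pathway, was at 179, 183, and 228 CPM in Cd5-/- and at 127, 126, and 151 CPM in Cd6-/- cells (log2 fold change 0.55, adjusted p = 0.126, with the filter 0.144, with the filter and the block 0.0463). Lss, Msmo1, Sc5d, and Dhcr7, also enzymes of the pathway, were the others that passed with the filter and the block (adjusted p 0.0205, 0.0157, 0.0339, and 0.0490).

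Rflnb, a filamin-binding protein, was at 28.3, 37.1, and 69.0 CPM in Cd5-/- cells and at 150, 156, and 134 CPM in Cd6-/- cells. The log2 fold change of -1.71 (SE 0.21, adjusted p = 9.3e-08, with the filter 0.00308) held in each alternative. Relative to WT cells, with 108 ± 50.3 CPM, Rflnb was lower in Cd5-/- cells (log2 fold change -1.27, adjusted p = 0.000441), and its value in Cd6-/- cells was 0.45 (adjusted p = 1). Igfbp4, a binding protein of insulin-like growth factors, was at 7.34, 10.8, and 14.0 CPM against 17.6, 37.7, and 47.2 CPM (log2 fold change -1.67, adjusted p with the filter 0.00755). The lowest library of each genotype was library 1, and the groups did not overlap. Gpr34, a lysophosphatidylserine receptor, was below 0.5 CPM in each Cd5-/- library and at 1.47, 3.34, and 3.56 CPM in the Cd6-/- libraries (log2 fold change -2.83, adjusted p with the filter 0.00308). Tmie was at 4.11, 3.99, and 4.18 CPM in Cd5-/- and at 10.3, 13.5, and 17.4 CPM in Cd6-/- cells (log2 fold change -1.74, adjusted p with the filter 0.00117).

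Fanci, of the Fanconi anemia repair pathway, was at 3.26, 5.66, and 4.27 CPM in Cd5-/- and at 8.39, 15.3, and 11.7 CPM in Cd6-/- cells (log2 fold change -1.42, SE 0.22, adjusted p = 3.72e-05, with the filter 0.0091). Mki67, a proliferation marker, was at 0.700, 3.17, and 1.28 CPM against 4.17, 9.24, and 9.73 CPM (log2 fold change -2.14, adjusted p = 0.0247, with the filter 0.281). Brca1, which acts in homologous recombination, had a log2 fold change of -1.88 (adjusted p = 0.000304, with the filter 0.0567). All 3 genes were below 20 CPM in each of the 6 libraries, and their groups did not overlap.

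On the higher side, Chn2, a Rac GTPase-activating protein, was at 33.3, 17.2, and 21.2 CPM in Cd5-/- and at 10.8, 6.89, and 8.61 CPM in Cd6-/- cells (log2 fold change 1.44, SE 0.22, adjusted p = 1.57e-05, with the filter 0.00351). Ephx1, the microsomal epoxide hydrolase, was at 445, 244, and 345 CPM against 213, 137, and 133 CPM (log2 fold change 1.10, SE 0.21, adjusted p = 0.0009, with the filter 0.0398). WT cells stood between the 2 knockouts for both, with 13.6 ± 2.99 CPM of Chn2 and 249 ± 70.3 CPM of Ephx1, and neither knockout differed from WT by the test. Spry4, an inhibitor of receptor tyrosine kinase to ERK signaling, was at 7.25, 4.49, and 6.19 CPM against 3.16, 2.29, and 2.41 CPM (log2 fold change 1.19, adjusted p = 0.0383, with the filter 0.0396). Slc16a3, a lactate exporter, was at 71.8, 53.2, and 76.7 CPM against 43.2, 29.5, and 25.4 CPM (log2 fold change 1.04, adjusted p with the filter 0.0463). Kcnf1, Map2, Tnfrsf19, and Sytl2 were called over all genes, with log2 fold changes of 1.06 to 1.46, and missed the threshold with the filter (adjusted p 0.0726, 0.153, 0.082, and 0.25).

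Some calls rested on a gene that was nearly silent in 1 group or uneven within it. Gm8116, a processed pseudogene on chromosome 9, was at 6.18, 5.14, and 6.28 CPM in Cd5-/- cells and at 0.0772, 0.0602, and 0.0678 CPM in Cd6-/- cells, at or under the limit of detection. It was also at 0.0310 ± 0.00481 CPM in WT and 0.191 ± 0.0559 CPM in dKO cells, so that Cd5-/- cells stood alone (adjusted p with the filter 0.00308). Gm2682, a long noncoding RNA, was at 0.152, 0.117, and 15.7 CPM in the Cd5-/- libraries and at 40.2, 42.0, and 47.2 CPM in the Cd6-/- libraries. Library 3 of the Cd5-/- cells thus differed from libraries 1 and 2, and the call (adjusted p = 0.0376) was lost with the filter (0.337). Wdfy1 was likewise uneven, at 50.6, 61.2, and 22.3 CPM in Cd5-/- cells against 14.2, 15.3, and 16.0 CPM (adjusted p = 0.0312, with the filter 0.259). Rab4a, a GTPase of recycling endosomes, was at 9.86, 4.84, and 1.75 CPM against 1.13, 1.57, and 0.847 CPM (with the filter, adjusted p = 0.123).

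**Figure D2:**
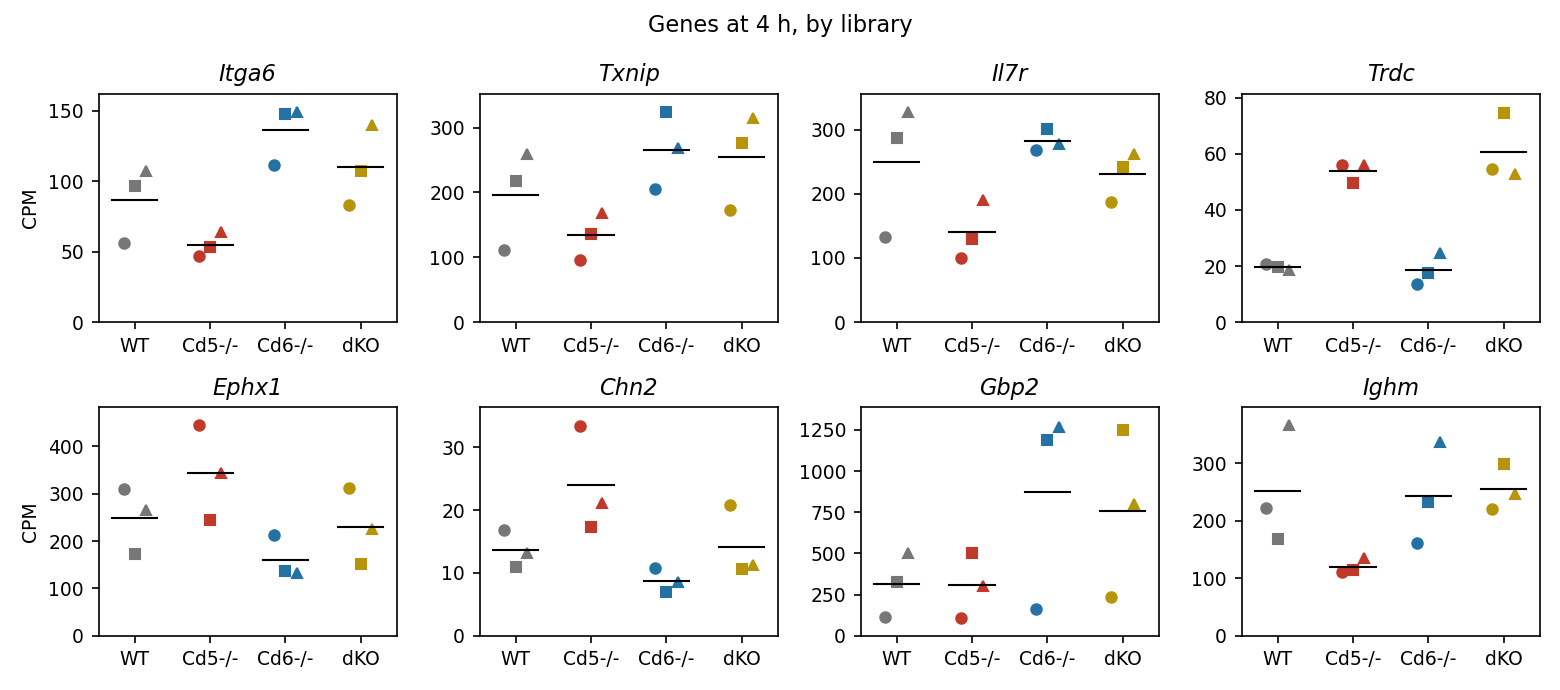
Levels of 8 genes at 4 h in each library, in CPM, for the 4 genotypes; circles, squares, and triangles are libraries 1, 2, and 3, and bars are means of 3 libraries. Itga6, Txnip, and Il7r had their lowest means in Cd5-/- cells, Trdc was high in Cd5-/- and dKO cells (means 53.8 and 60.6 CPM), and the 2 groups of Gbp2 overlapped, with 163 CPM in library 1 of the Cd6-/- cells and 503 CPM in library 2 of the Cd5-/- cells.

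The naive and quiescence list holds receptors and factors that resting T cells express and activation turns down. Of its 18 genes, 4 were lower in Cd5-/- cells by adjusted p over all genes and 0 were higher, with a median log2 fold change of -0.37; with the filter 0 passed, 9 were lower and 0 higher at an unadjusted p under 0.05, and without library 1 of the Cd5-/- cells 0 passed. Il7r, the IL-7 receptor alpha chain, was at 99.5, 130, and 190 CPM in Cd5-/- and at 268, 302, and 278 CPM in Cd6-/- cells (log2 fold change -1.01, adjusted p = 0.00329, with the filter 0.0863). Txnip, an inhibitor of glucose uptake, was at 96.2, 136, and 169 CPM against 205, 324, and 268 CPM (log2 fold change -0.99, adjusted p = 0.00931, with the filter 0.136). The groups overlapped for neither gene. Pik3ip1, an inhibitor of PI3K, had a log2 fold change of -0.92 (adjusted p = 0.00366, with the filter 0.0613). With the replicate block 5 of the 18 genes passed, and with the filter and the block 3 did. In WT cells Il7r was at 249 ± 103 CPM and Txnip at 196 ± 76.3 CPM, and neither knockout was called against WT for these genes.

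The interferon-stimulated list had the median furthest from 0 of the pathway lists. All 20 genes had negative log2 fold changes, with a median of -1.26, and 18 had an unadjusted p under 0.05. Over all genes 9 passed the adjusted p, beside 0.873% of all genes lower by that rule; with the filter 0 passed, with DESeq2 1 passed, with the replicate block 15 passed, with the filter and the block 7 passed, and without library 1 of the Cd5-/- cells or library 2 of the Cd6-/- cells 0 passed. Gbp2, an interferon-induced GTPase, was at 109, 503, and 303 CPM in Cd5-/- and at 163, 1188, and 1265 CPM in Cd6-/- cells (log2 fold change -1.51, adjusted p = 0.0248, with the filter 0.284). Library 1 was the lowest of both genotypes, and the groups overlapped. Ifit1, which binds viral RNA, was at 2.89, 5.96, and 4.14 CPM against 3.88, 20.1, and 13.9 CPM (log2 fold change -1.54, adjusted p = 0.00345, with the filter 0.122). Oas1a, an oligoadenylate synthetase, was at 1.16, 2.73, and 2.05 CPM against 2.50, 7.92, and 6.54 CPM (log2 fold change -1.51, adjusted p = 0.0265, with the filter 0.203). Irf7, a factor that amplifies type I interferon, had a log2 fold change of -1.34 (adjusted p = 0.0128, with the filter 0.209). Of the 20 genes, 1 had groups that did not overlap. Summed over the list, the Cd5-/- libraries 1, 2, and 3 held 641, 1597, and 1217 CPM and the Cd6-/- libraries 847, 3337, and 3191 CPM. Within each number the Cd5-/- library was lower than the Cd6-/- library. The WT libraries held 647, 1283, and 1804 CPM, near those of Cd5-/- cells. The dKO libraries held 988, 3271, and 2322 CPM, nearer those of Cd6-/- cells.

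Promoters of these genes are shown as background on the list. Interferon-activated factors are known to bind repeats of GAAA spaced by 2 bases, and GAAANNGAAA was searched on both strands, overlapping matches included, in the 250 bases before each start. RefSeq, on GRCm38.p6, gave a promoter for 13 of the 20 genes, and 10 of the 13 (76.9%) held the motif, beside 978 of 32851 promoters of all genes (2.98%). The list was made of genes known to respond to interferon, so this share follows from its choice and bears on neither genotype. The windows below are 100 bases that include the first match, on the strand of the gene, with matches of either strand in capitals.
Ifit1 (chr19:34640775-34640874, plus strand): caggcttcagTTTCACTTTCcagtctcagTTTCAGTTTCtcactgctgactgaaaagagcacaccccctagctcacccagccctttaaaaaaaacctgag
Gbp2 (chr3:142620563-142620662, plus strand): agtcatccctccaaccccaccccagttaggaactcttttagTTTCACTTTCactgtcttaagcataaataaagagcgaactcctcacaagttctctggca
Oas1a (chr5:120907526-120907625, minus strand): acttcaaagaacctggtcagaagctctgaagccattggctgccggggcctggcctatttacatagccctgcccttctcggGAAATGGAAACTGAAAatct
Ifit1 held 2 matches, Gbp2 held 1, and Oas1a held 2 that overlapped. Irf7, Oasl2, and Xaf1 held no match in this window.

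Markers of other cells lay on the same side as these genes. The 12 B cell markers, 12 myeloid markers, and 6 erythroid markers all had negative log2 fold changes, with medians of -1.28, -1.07, and -1.56, and 7 of 8 NK cell markers did so too, with a median of -1.11. Over all genes 4 B cell markers passed the adjusted p (Pax5, Ighm, Ighd, and Cd79a) and no myeloid, NK cell, or erythroid marker did; with the filter none of the 4 passed, with the replicate block 9 of the 12 B cell markers did, and with the filter and the block 1 did (Ighm, 0.0132). The block alone also passed 4 myeloid, 1 NK cell, and 5 erythroid markers, and with the filter and the block 0 of these passed. Summed B cell markers ranged from 281 to 348 CPM in Cd5-/- and from 423 to 1116 CPM in Cd6-/- libraries, the latter in library 3. Summed erythroid markers, mostly globins, were at 230, 626, and 779 CPM against 927, 2012, and 1991 CPM. Summed myeloid markers ranged from 13.0 to 29.8 CPM against 22.7 to 76.6 CPM, and summed NK cell markers from 52.2 to 62.7 CPM against 53.9 to 105 CPM. Without library 3 of the Cd6-/- cells, 0 B cell markers passed and their median was -0.70. Hbb-bs, a beta globin, at 138, 378, and 463 CPM against 549, 1220, and 1230 CPM, and S100a9, a neutrophil gene, at 1.61, 0.528, and 2.18 CPM against 3.91, 3.52, and 14.0 CPM, passed with the block (adjusted p 0.0315 and 0.00836, against 0.167 and 0.101 without it) but not with the filter and the block (0.246 and 0.167). The part of these cells in the lower interferon-stimulated, immunoglobulin, and MHC class II genes was not tested. In bulk RNA, fewer cells of a type and less RNA per cell cannot be told apart.

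Immunoglobulin segments were among the genes called lower, and of these only Ighv9-3 was called with the filter (adjusted p = 0.0396). Their share among all genes tested was not computed. Cd22 and H2-DMb2, genes of B cells and antigen presentation, were among the 15 lower genes with the largest fold changes. Ighm was at 110, 115, and 134 CPM in Cd5-/- and at 161, 232, and 336 CPM in Cd6-/- cells (log2 fold change -1.02, adjusted p = 0.00329, with the filter 0.0863). The WT level of Ighm was 252 ± 102 CPM and the dKO level 255 ± 40.4 CPM, both near that of Cd6-/- cells, and Ighm was lower in Cd5-/- than in WT cells (log2 fold change -1.07, adjusted p = 0.00802). H2-DMa, which loads peptides onto MHC class II, was at 8.83, 11.9, and 13.0 CPM against 17.9, 44.4, and 67.1 CPM (log2 fold change -1.94, adjusted p = 5.19e-05, with the filter 0.0459). The 2 CD8 T cell markers had a median of -0.80 with 0 passing, and of the 5 sex-linked genes 0 passed.

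**Figure D3:**
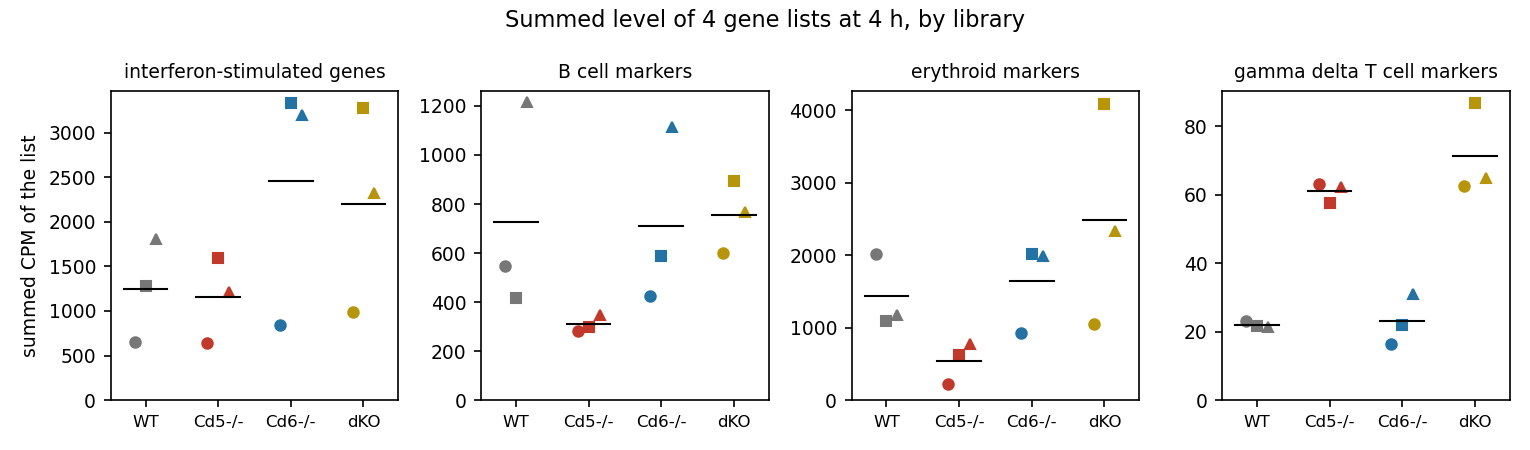
Summed CPM of 4 gene lists at 4 h in each library, for the 4 genotypes; circles, squares, and triangles are libraries 1, 2, and 3, and bars are means of 3 libraries. Interferon-stimulated genes were lowest in library 1 of each genotype, B cell and erythroid markers were lowest in Cd5-/- cells, and gamma delta T cell markers were at 57.6 to 63.2 CPM in Cd5-/- and 16.5 to 30.9 CPM in Cd6-/- libraries.

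Genes of gamma delta T cells lay on the other side. Trdc, the constant segment of the TCR delta chain, was at 56.0, 49.6, and 55.9 CPM in Cd5-/- and at 13.8, 17.6, and 24.6 CPM in Cd6-/- cells. The log2 fold change was 1.53 (SE 0.24, adjusted p = 2.8e-05, with the filter 0.016), and it passed in all 20 alternatives. The WT level was 19.7 ± 1.07 CPM and the dKO level 60.6 ± 12.1 CPM; Trdc was higher than in WT in Cd5-/- (adjusted p = 0.000409) and in dKO cells (adjusted p = 1.24e-05), and not by the test in Cd6-/- cells (adjusted p = 1). Trdv1, a variable segment of the same chain, was at 4.57, 4.37, and 4.23 CPM against 1.80, 1.66, and 1.12 CPM (log2 fold change 1.52, adjusted p = 0.0104, with the filter 0.0385). Of the 6 gamma delta T cell markers 1 passed and 5 had positive values, with a median of 0.80. Tcrg-C2 and Tcrg-C4, constant segments of the TCR gamma chain, had log2 fold changes of 0.86 and 0.75 (adjusted p 0.397 and 0.562) at 4 h. At 20 h both were higher in Cd5-/- cells, with log2 fold changes of 1.98 and 1.76 (adjusted p 0.00841 and 0.0213, with the filter 0.123 and 0.183).

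For the TCR itself, 12 of the 13 genes of the complex and its proximal kinases had positive values, with a median of 0.31. By adjusted p 1 was higher and 1 lower, and with the filter 0 passed. Cd3g was at 991, 608, and 873 CPM in Cd5-/- and at 655, 479, and 459 CPM in Cd6-/- cells (log2 fold change 0.63, adjusted p = 0.0484, with the filter 0.116), with groups that overlapped. Cd247, the zeta chain, was at 242, 261, and 297 CPM in Cd5-/- and at 341, 450, and 475 CPM in Cd6-/- cells (log2 fold change -0.66, adjusted p = 0.0223, with the filter 0.0863). Lck and Zap70, the kinases that start TCR signaling, had log2 fold changes of 0.31 and 0.25 (adjusted p 0.652 and 0.889, with the filter 0.251 and 0.253). With the replicate block, with or without the filter, 3 genes of this list passed. In the 10 CD4 T cell markers, which share most of these genes, 1 passed and the median was 0.35.

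Among 32 negative regulators of TCR signaling 1 was higher and 1 lower, with a median of 0.14. Ptpn6, the phosphatase SHP-1, was at 494, 421, and 391 CPM in Cd5-/- and at 312, 259, and 272 CPM in Cd6-/- cells (log2 fold change 0.63, SE 0.15, adjusted p = 0.0156, with the filter 0.019). It was the only gene of this list that passed with the filter, its groups did not overlap, and its fold of 1.55 was below the fold threshold. WT cells had 332 ± 45.7 CPM of Ptpn6. Socs3, an inhibitor of cytokine receptors, was at 6.33, 22.5, and 16.8 CPM against 19.0, 70.6, and 72.3 CPM (log2 fold change -1.83, adjusted p = 0.000405, with the filter 0.0796).

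The mRNAs of proteins found with CD5, CD6, or LAT in activated T cells showed 0 calls over all genes or with the filter. With the replicate block 0 partners of CD5, 2 of CD6, and 2 of LAT passed the adjusted p, all lower, and with the filter and the block Grap2 alone passed. The medians were -0.03 for 5 partners of CD5, -0.01 for 11 of CD6, and -0.03 for 12 of LAT, against 0 for all genes. These lists came from the same study. Ubash3a, a phosphatase-like partner of both CD5 and CD6, had a log2 fold change of -0.03, with a 95% interval of -0.34 to 0.28. Lcp2 (SLP-76), an adaptor shared by CD6 and LAT, had one of -0.01, with an interval of -0.29 to 0.27. Grap2 (GADS), which links LAT to SLP-76, had the smallest adjusted p, at 88.3, 96.6, and 82.3 CPM in Cd5-/- against 148, 154, and 127 CPM in Cd6-/- cells (log2 fold change -0.68, adjusted p = 0.0542, with the filter 0.178, with the block 0.0016, with both 0.0308). Themis and Arhgap45 had log2 fold changes of -0.62 and -0.60 (adjusted p 0.0737 and 0.124, with the filter 0.169 and 0.266, with the block 0.0125 and 0.00836). Of the 9 scavenger receptor family genes and ligands only Cd5 and Cd6 passed, over all genes and with the filter.

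**Figure D4:**
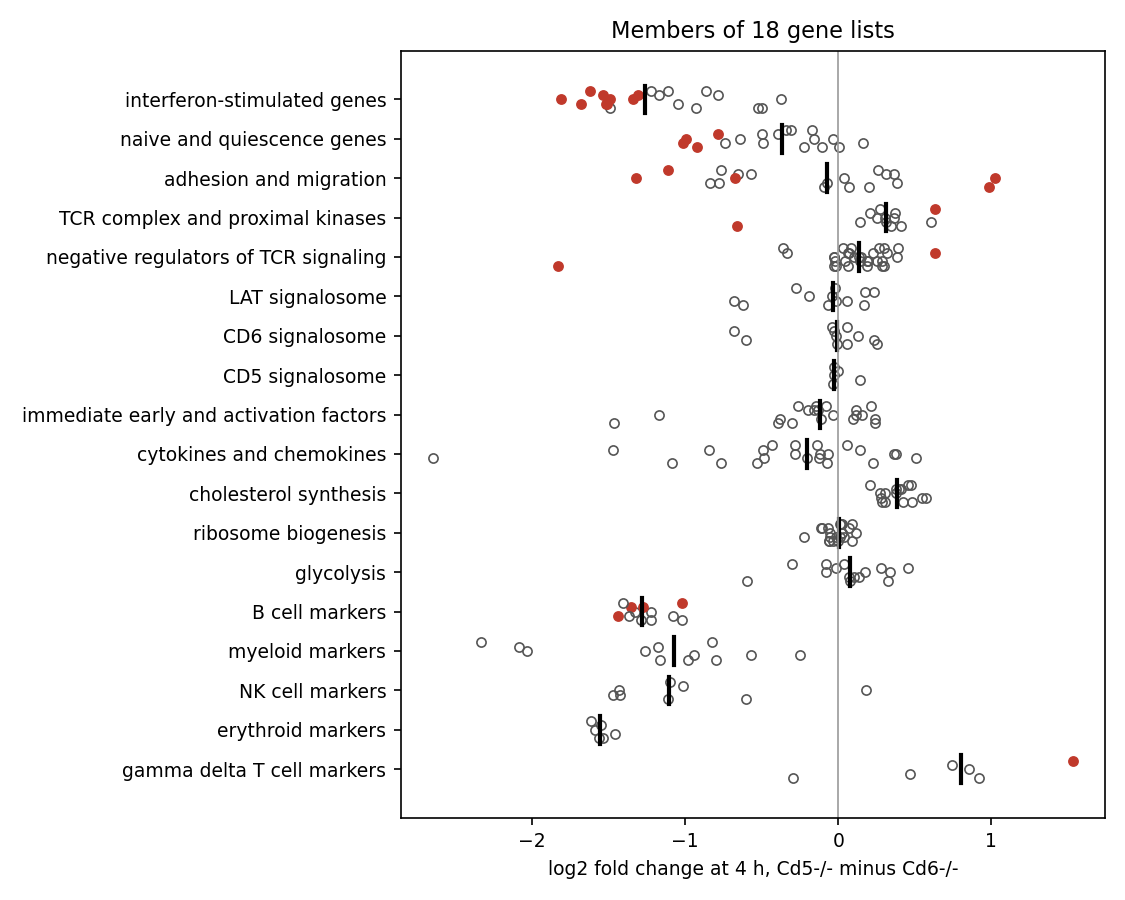
Log2 fold changes of Cd5-/- over Cd6-/- cells at 4 h for the members of 18 gene lists, Cd5 and Cd6 left out; filled red circles are genes with an adjusted p under 0.05 over all genes tested, open circles the rest, and black bars the list medians. Interferon-stimulated genes and markers of other blood cells lay to the left, cholesterol synthesis genes to the right, and the 3 signalosome lists near 0.

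No gene in the lists of T cell activation passed the test over all genes or with the filter. By adjusted p 0 of 20 immediate early and activation factors passed (median -0.12), 0 of 13 NF-kappaB genes (median -0.01), 0 of 23 cytokines and chemokines (median -0.20), and 0 of 16 activation surface molecules (median 0.10). At an unadjusted p under 0.05 these lists held 2, 1, 3, and 2 lower genes, and the surface molecules 2 higher ones. With DESeq2 Icos and Cd200, a costimulatory receptor and an inhibitory ligand, passed as higher (adjusted p 0.0313 and 0.0151), and so they did with the filter and the block (0.0184 and 0.0232). With the replicate block alone 0, 0, 2, and 2 genes of these lists passed. Nr4a1, induced in proportion to TCR signal, had a log2 fold change of 0.12, with a 95% interval of -0.37 to 0.60. Il2 was at 0.06 (-0.48 to 0.59), Tnf at 0.14 (-0.34 to 0.62), Cd69 at 0.22 (-0.39 to 0.83), and Cd40lg at 0.04 (-0.31 to 0.39). For these 5 genes the intervals leave room for differences of up to about 0.8 on the log2 scale. Intervals of other members were wider and reached -3.20 and 3.62 in the immediate early list, -4.99 among the cytokines, and -1.46 among the surface molecules. Cd200 and Cd83 had the smallest p of the surface molecules, with log2 fold changes of 0.55 and -0.90 (adjusted p 0.0707 and 0.137, with the filter 0.0682 and 0.413). Ribosome biogenesis (22 genes, median 0.00) and glycolysis (15 genes, median 0.08) had 0 calls over all genes. With the filter Slc2a3, a glucose transporter, passed (adjusted p = 0.0161), at 97.5, 89.4, and 96.5 CPM in Cd5-/- and at 77.5, 64.4, and 64.5 CPM in Cd6-/- cells (log2 fold change 0.46).

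Among 6 regulatory T cell markers Nrp1 and Ikzf4 were lower in Cd5-/- cells (log2 fold changes -1.38 and -1.25, adjusted p 0.00247 and 0.0038) and did not pass with the filter (0.0618 and 0.0725). Foxp3, the defining factor of these cells, was at 11.8, 16.3, and 6.02 CPM against 13.2, 20.3, and 22.2 CPM (log2 fold change -0.70, adjusted p = 0.562). The median of the list was -0.54. Of 12 memory and effector T cell markers, Il18r1 passed (log2 fold change -1.07, adjusted p = 0.0115, with the filter 0.134), and the median was -0.58.

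The called genes were then read against the 4 h response of the sorted WT cells of a separate experiment in the series. These were the human DTR-positive cells of Lat fl-dtr maT-Cre mice, fitted in their own table. Of the 186 genes lower in Cd5-/- cells, 96 (51.6%) fell on stimulation of sorted WT cells and 5 (2.69%) rose. Among all genes with a mean over 1 CPM, 15.6% fell and 17.2% rose. Of the 19 higher genes 6 rose and 1 fell. For the 58 genes called with the filter, 25 of 46 lower genes fell and 2 rose, and 4 of 12 higher genes rose and 0 fell. The genes most strongly repressed in sorted WT cells among those named above were Igfbp4 (log2 change on stimulation -5.38), Ifit1 (-4.15), and Gpr34 (-3.15), while Spry4 (5.00) and Slc16a3 (3.49) were induced.

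A summary of the response was formed in each library as the mean log2 CPM of the 2236 genes induced in sorted WT cells minus that of the 2581 genes repressed in them. On a scale where unstimulated WT cells are at 0% and WT cells at 4 h at 100%, the Cd5-/- libraries 1, 2, and 3 stood at 106%, 101%, and 105%, and the Cd6-/- libraries at 101%, 91.3%, and 91.2%. The means were 104% ± 2.31 and 94.4% ± 5.44 (SD, n = 3), beside 100% ± 4.50 in WT and 93.8% ± 4.78 in dKO cells. The 2 groups did not overlap, although library 1 of the Cd6-/- cells stood just under the lowest Cd5-/- library. The difference of the means was 0.34 on the log2 scale, given as a description with no test. Within the numbers 1, 2, and 3 the difference was 0.18, 0.36, and 0.49. The repressed genes carried it: their mean log2 CPM was 1.43, 1.62, and 1.41 in the Cd5-/- libraries and 1.92 and 1.87 in libraries 2 and 3 of the Cd6-/- cells, library 1 of which lay between 1.43 and 1.62. In contrast, the induced genes were at 4.65, 4.69, and 4.60 in Cd5-/- cells against 4.65, 4.62, and 4.57. The part of other cells in this score was not tested.

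At 20 h, in libraries that the 4 h comparison does not use, 33 genes were called (0.102%), 10 higher and 23 lower, and 9 (0.0558%) with the filter. With the replicate block 49 were called, and with the filter and the block 18. Called at both times in the same direction were 14 genes, and 0 were called in opposite directions; beside Cd5 and Cd6 these included Trdc, Gm8116, Wdfy1, Carnmt1, Pros1, and Tmie. With the filter Gm8116, Wdfy1, and Carnmt1 passed at 20 h (adjusted p 0.0122, 0.0190, and 0.0122), whereas Trdc and Pros1 did not (0.382 and 0.319). Pros1, the vitamin K-dependent protein S, was at 0.822, 2.26, and 1.84 CPM in Cd5-/- and at 1.29, 8.73, and 17.6 CPM in Cd6-/- cells at 4 h (log2 fold change -2.48, adjusted p = 0.000447, with the filter 0.0863). By 20 h it was at 15.4, 35.0, and 17.3 CPM against 41.9, 88.4, and 163 CPM. Of the 186 genes lower at 4 h, 133 (71.5%) had a negative log2 fold change at 20 h, with a median of -0.33. The share was 35.9% of all genes tested, many of them at a log2 fold change of 0, and 45.4% of the genes kept by the filter. Of the 46 genes lower at 4 h with the filter, 33 (71.7%) were below 0 at 20 h.

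The change of the difference between the 2 times was itself called for 15 genes (0.0465%), and for 3 (0.0186%) with the filter, Ecm1, Nmnat2, and Ndrg1. The count rested on single libraries: it was 5 without library 1 of the Cd5-/- cells at 4 h, 9 without library 2 of the Cd6-/- cells at 4 h or library 2 of the Cd5-/- cells at 20 h, 40 and 28 without library 1 of the Cd6-/- cells at 4 h and 20 h, and 32 without library 3 of the Cd5-/- cells at 20 h. Cd226, lower in Cd5-/- cells at 4 h, was at 180, 171, and 158 CPM in Cd5-/- and at 145, 135, and 128 CPM in Cd6-/- cells at 20 h. Its difference thus went from -1.11 to 0.32 on the log2 scale (change 1.43, adjusted p = 0.0126, with the filter 0.124). Ecm1, an extracellular matrix protein, went from 0.36 to -0.82 (change -1.18, adjusted p = 0.0159, with the filter 0.0317), and Nmnat2, an NAD-synthesizing enzyme, from 1.04 to -1.08 (change -2.12, adjusted p = 0.0159, with the filter 0.0317). Fanci and Brca1, lower in Cd5-/- cells at 4 h, were at 54.8 and 51.7 CPM in Cd5-/- and at 52.2 and 47.7 CPM in Cd6-/- cells at 20 h. Residual Cd5 mRNA was at 12.5, 13.9, and 11.4 CPM in Cd5-/- cells at 20 h, and its difference was -6.44 at that time (change -2.71, adjusted p = 0.00293, with the filter 0.302).

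**Figure D5:**
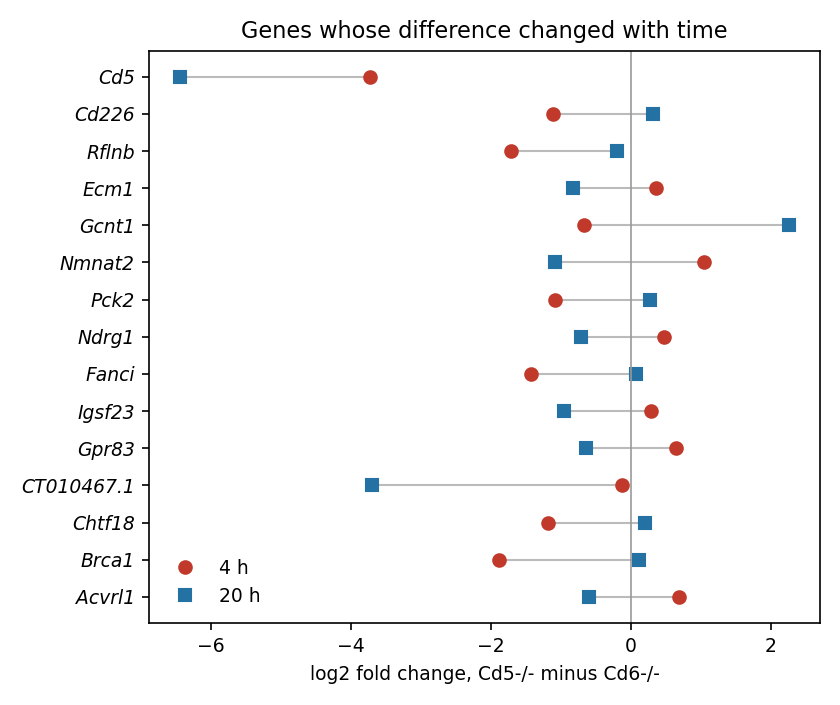
Log2 fold changes of Cd5-/- over Cd6-/- cells at 4 h (red circles) and 20 h (blue squares) for the 15 genes whose difference changed between the times by the test. Apart from CT010467.1, which changed by -3.57, all moved by 1 to 3 units, such as Cd226 from -1.11 to 0.32 and Gcnt1 from -0.67 to 2.26.

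The chromosome that carries both targeted genes was examined as well. Of 437 genes tested within 10 Mb of Cd5 on chromosome 19, 4 were called (0.915%), Cd6 higher and Cd5, Mpeg1, and Carnmt1 lower in Cd5-/- cells. Beside the targeted genes this was 2 of 435 (0.46%), where 0.635% of all genes were called. Mpeg1, a macrophage gene, did not pass with the filter (adjusted p = 0.247). Carnmt1 (chr19:18670764-18707200), a carnosine methyltransferase, was at 2.62, 2.64, and 4.44 CPM in Cd5-/- and at 12.1, 8.34, and 8.41 CPM in Cd6-/- cells (log2 fold change -1.58, SE 0.28, adjusted p = 0.000447, with the filter 0.0316). It was at 9.75 ± 1.22 CPM in WT and 9.17 ± 1.88 CPM in dKO cells, and it was called lower in Cd5-/- than in WT cells (adjusted p = 0.00192, without the filter). The low level was thus found in the Cd5-/- line and not in the dKO line. The other genes in this window with an unadjusted p under 0.001 were Fam111a, Slc15a3, Unc93b1, Dtx4, and A430093F15Rik.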

How the data were processed

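Per the labels, RNA was extracted from naive CD4+ T cells, and stranded mRNA libraries were sequenced. The authors demultiplexed with bcl2fastq 2.17.1.14, trimmed with DimerRemover, and used STAR on GRCm38 (mm10) and featureCounts. The deposited counts are whole reads of each gene without normalization. The annotation release, the use of strand, and the handling of multimapping reads in counting are not given in the sources used here, so pseudogenes, overlapping genes, and TCR, immunoglobulin, and globin segments are uncertain.

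Counts of 32290 genes with at least 1 read over 36 libraries were fitted with edgeR 4.0.16 in R 4.3.3 (quasi-likelihood test, TMM factors, Benjamini-Hochberg adjustment, 1 coefficient per genotype and time, 24 residual degrees of freedom). Log2 fold changes are Cd5-/- minus Cd6-/-, CPM use TMM-scaled totals, and limits of detection are 3 counts over library totals and cover counting error only. The design text calls the 3 libraries of a group biological replicates without naming the mice, so p-values measure the spread between these samples. Of 55385 identifiers, 55144 matched the GENCODE annotation of GRCm38. The procedure was tested on simulated counts, and the unfiltered fit called more unchanged genes than its nominal rate. The fit after filterByExpr passed a check whose limit on false calls was looser than that rate. This was a single run with counts drawn independently for each library, without deviations shared by libraries of the same number. Alternatives were DESeq2 1.42.0, other scalings, filters, subsets, the replicate block, and fits without single libraries; robust hyperparameters, the filter with the block, and fits without single 20 h libraries were chosen after seeing the data.

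Named were the targeted genes and ligands, up to 15 called genes per direction with the largest fold change (mean of at least 50 counts, the same direction in each replicate number), list members past the adjusted p or otherwise of smallest p or above 100 CPM, up to 10 genes per direction at 20 h, and neighbors within 10 Mb. Genes singled out otherwise were called with the filter and were chosen after their values were seen, not by rank of adjusted p. The members and lists were chosen with earlier results of these data known. Some list members are not reported by name here.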

Additional observations from a re-analysis of the deposited data

Results flagged for a closer look

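The difference between Cd5-/- and Cd6-/- cells changed between 4 h and 20 h, by the test of the change itself, for 15 genes. Values are the difference at 20 h minus that at 4 h, on the log2 scale. It was positive for Gcnt1 (2.93), Brca1 (1.99), Rflnb (1.52), Fanci (1.49), Cd226 (1.43), Chtf18 (1.38), and Pck2 (1.36). It was negative for CT010467.1 (-3.57), Cd5 (-2.71), Nmnat2 (-2.12), Gpr83 (-1.30), Acvrl1 (-1.27), Igsf23 (-1.24), Ecm1 (-1.18), and Ndrg1 (-1.18). Adjusted p ranged from 0.00293 for Cd5 to 0.0486 for Acvrl1 over all genes, and with the expression filter Ecm1, Nmnat2, and Ndrg1 passed, each at 0.0317. CT010467.1 is a ribosomal RNA gene model whose mean was 202 and 221 CPM at 4 h and 441 and 5750 CPM at 20 h in Cd5-/- and Cd6-/- cells. No group held enough libraries for a test of outlying libraries.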

How the results depend on the processing

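The 205 genes called at 4 h became 313 by adjusted p alone, 58 with filterByExpr, 50 with robust hyperparameters, 443 with the compared groups alone, 389 without the unstimulated libraries 2 labelled Cd5-/- and Cd6-/-, 367 with the replicate block, and 609 with the block in the 4 h libraries alone. Leaving out libraries gave 39 to 481. DESeq2 (153), RLE factors (168), library totals (142), the 4 h libraries alone (164), and filterByExpr with the block (151) stayed within 1.5 times. With the filter 79.3% of calls were lower, beside 90.7% without it. The 33 genes at 20 h became 16 with library totals, 9 with filterByExpr, 16 with the compared groups alone, 20 with stimulated libraries alone, 65 without the 2 unstimulated libraries, 89 with the block in the stimulated libraries alone, 7 with robust hyperparameters, 18 with filterByExpr and the block, 25 to 49 without single 20 h libraries (chosen after seeing the data), and up to 97 without a number. The 15 genes of the change between times became 9, 3, and 71 with library totals, filterByExpr, and the compared groups alone, 47 without the 2 unstimulated libraries, 39 with the block, 94 with the block in the stimulated libraries alone, 8 with robust hyperparameters, 9 with filterByExpr and the block, and 5 to 62 without single libraries of either time or numbers. Beyond the fewer genes or samples each setting uses, the cause was not tested.

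The log2 fold changes of Cd5 (-4.13 to -3.47) and Cd6 (2.03 to 2.27) and the score difference (0.27 to 0.42) kept their direction throughout. Over 1340 values of 67 named genes past the threshold, 1017 stayed past it, 311 were weaker, 12 stronger, and 0 reversed. Of 319 named genes that did not pass the adjusted p, 2 passed with filterByExpr, 11 with DESeq2, 22 with filterByExpr and the block, 64 with the block, 87 with the compared groups alone, and 155 with the block in the 4 h libraries alone. RLE factors and library totals moved the median of all genes by 0.0022 and -0.028. Same-numbered libraries of Cd5-/- and Cd6-/- cells deviated from their group means with correlations of 0.491, 0.355, and -0.0149 over 11473 genes, so the numbers were not shown to pair them at 4 h; libraries 1 and 2 correlated best with their own number and library 3 did not. Over all 4 genotypes at 4 h, 16 of 18 same-numbered pairs had a correlation over 0.1 (mean 0.404, beside -0.203 for other numbers). The same 2 genotypes at 20 h had 0.648, 0.340, and 0.663, so that there the numbers did pair them. Differences of under about 0.071 to 0.118 CPM lie below the depth of these libraries.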
